A study of Mus musculus with 20 samples.

Results

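The genes described here are Pirb and 9 further receptors that myeloid cells use mainly to restrain activation: Lilrb4a, Siglec1, Siglece, Cd33, Sirpa, Cd300a, Cd300lf, Pilra and Lair1. They were chosen by symbol, all 10 were found among the 33243 gene symbols of the count table, and all 10 passed the filter on low counts. RNA was sequenced from dural macrophages of the skull (dCAMs), which had been sorted as CD45int CD11b+ CD206int-high cells from mice of the genotype Ccr2creERT2/+ R26tdT/tdT. In this line the Ccr2 promoter drives a tamoxifen-dependent Cre, so that tdTomato (tdT) marks cells that expressed Ccr2 around the time of tamoxifen, together with their progeny. The tdT− population therefore holds whatever cells in the gate escaped this marking. All 10 mice, controls included, had been given BLZ945, an inhibitor of CSF1R, for 7 days (200 mg per kg), and tamoxifen at 2 mg per day on the last of these days and again 2 and 4 days later. An injection of either PBS (CTL) or lipopolysaccharide (LPS, 2.5 mg per kg) followed 8 weeks later, and the dura was collected 12 h later. The labels give no age, and no group without BLZ945 was analysed here. Each mouse gave 1 tdT+ and 1 tdT− library, which made 4 groups of 5 libraries from 5 CTL mice (174, 175, 177, 178 and 179) and 5 LPS mice (54, 56, 59, 60 and 61).

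Inhibitory receptors of this kind carry immunoreceptor tyrosine-based inhibitory motifs (ITIMs) in their cytoplasmic tails. Once phosphorylated by Src family kinases, these motifs recruit the phosphatases SHP-1 and SHP-2 and dampen signals from activating receptors, Toll-like receptors and integrins. Many have a near-identical activating partner that signals instead through the adaptors FcRγ or DAP12. Siglec1 (CD169, sialoadhesin) is an exception among the 10, since it has a short tail without an ITIM and acts mainly as an adhesion and capture receptor for sialylated surfaces.

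Library totals ranged from 6017650 to 18925908 counts, with 12073566 or more in every LPS library and 12208203 or fewer in every CTL library. The macrophage genes Mrc1, Csf1r and Adgre1 were present in all 20 libraries, at 551 CPM or more (CPM, counts scaled to a common library size after TMM normalisation). Mrc1 fell with LPS by −1.14 and −1.40 log2 units in tdT− and tdT+ dCAMs, and Csf1r by −0.99 and −2.08. Folr2 and Cbr2 fell as well. Lyve1 and Folr2 reached as low as 0.407 and 9.05 CPM in tdT− LPS libraries. Itgam rose (2.67 and 2.48), and Cd163, Pf4, F13a1 and Ptprc overlapped between treatments in both populations. The tdT− CTL group was the least uniform. It also had the fewest genes with at least 10 counts, at 6671 to 9365 per library. The tdT+ CTL libraries had 10024 to 11032 such genes, and the LPS libraries 10930 or more. In the tdT− CTL group, the libraries from mice 178 and 179 held the haemoglobin transcript Hba-a1 at 344 and 138 CPM. All other libraries held it at 18.1 CPM or less. The library from mouse 179 also held the fibroblast transcript Dcn at 1777 CPM and Ptprc, which encodes CD45, at 61.4 CPM. The dendritic cell markers summed to between 618.1 and 3329 CPM in tdT− CTL and to between 51.2 and 77.1 CPM in tdT+ CTL libraries. Cd209a was 27.8-fold lower in tdT+ than in tdT− CTL libraries (adjusted p = 0.00129) and was highest, at 2774 CPM, in the tdT− library of mouse 174, together with Flt3 at 348 CPM. After LPS the tdT− libraries averaged 401 CPM for Ccr7 and the tdT+ libraries 7.21 CPM. The 4 monocyte markers summed to between 517 and 1003 CPM in tdT− CTL and between 160.2 and 466.5 CPM in tdT+ CTL libraries. With LPS the sums were 165.3 to 500.9 and 58.33 to 97.73 CPM. Ccr2 was lower in tdT+ than in tdT− CTL libraries (−1.15 log2 units, adjusted p = 0.0289), as was Plac8 (−8.53, adjusted p = 0.00042). Ccr2 fell with LPS by −3.12 and −4.15 in tdT− and tdT+ dCAMs. The microglial marker Tmem119 rose 16.0-fold and 7.15-fold with LPS in tdT− and tdT+ dCAMs. P2ry12, another microglial marker, went the other way by −1.19 and −1.97 log2 units, without passing in edgeR (adjusted p = 0.231 and 0.102). Sall1, also microglial, was at 1.97 CPM or less throughout. The 8 neutrophil markers summed to 180.6 CPM or less in CTL libraries and to between 243.8 and 823 CPM in LPS libraries. S100a8 was the highest on average after LPS, and Mmp8 was at 56.85 CPM or more in every LPS library. S100a9 and Ngp did not go with them, at up to 15.13 and 20.32 CPM in CTL and up to 2.175 and 1.269 CPM in LPS libraries. Retnlg was at 23.2 CPM or more in tdT− and at 1.02 CPM or less in tdT+ LPS libraries. Ly6g was at 1.54 CPM or less throughout. The B cell markers summed to 608.2 CPM or more in CTL and 40.7 CPM or less in LPS libraries. Most of the CTL sum was Ighm, at 574.6 CPM or more in every CTL library. Cd79b averaged 53.0 and 48.0 CPM in tdT− and tdT+ CTL libraries. Cd79a was at 10.4 CPM or less and Ms4a1 at 5.97 CPM or less throughout. The part of these transcripts in the results was not tested. T and NK cell markers summed to 22.7 CPM or less, and endothelial markers to 26.4 CPM or less. In bulk libraries, a smaller share of cells expressing a gene and less RNA per cell cannot be told apart.

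Without LPS, Sirpa had the highest mean of the 10 transcripts per kilobase of transcript, at 161.1 ± 18.01 CPM per kb (SD, n = 5) in tdT− and 231 ± 28.6 in tdT+ dCAMs. It stood above every other receptor in tdT+ CTL libraries, whereas in tdT− CTL libraries its range overlapped that of Lilrb4a at 156 ± 36.9 CPM per kb. Sirpa exceeded Lilrb4a in only 1 of these 5 tdT− libraries. The remaining neighbours in the order of the tdT− CTL group also overlapped. Lilrb4a exceeded Siglece in all 5 of these libraries, while each later pair of neighbours kept its order in 3 of 5. After LPS the order was different. Siglece came first with 378 ± 35.7 and 417 ± 25.7 CPM per kb in tdT− and tdT+ dCAMs, followed by Pirb with 336 ± 47.0 and 338 ± 22.7, and the ranges of both overlapped in tdT− but not in tdT+ dCAMs. Within each of the 5 tdT− LPS libraries Siglece exceeded Pirb. Lair1 came last in both LPS groups, at 7.33 ± 3.57 and 4.57 ± 2.53 CPM per kb. Its range overlapped with that of Cd300a in tdT− dCAMs, although it lay below Cd300a in each of the 5 libraries. Of the summed CPM of the 10 genes, Pirb made up 8.40% and 5.77% in tdT− and tdT+ CTL libraries, and 29.5% and 28.4% after LPS. Sirpa went from 30.6% and 33.4% to 9.32% and 6.40%.

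**Figure D1:**
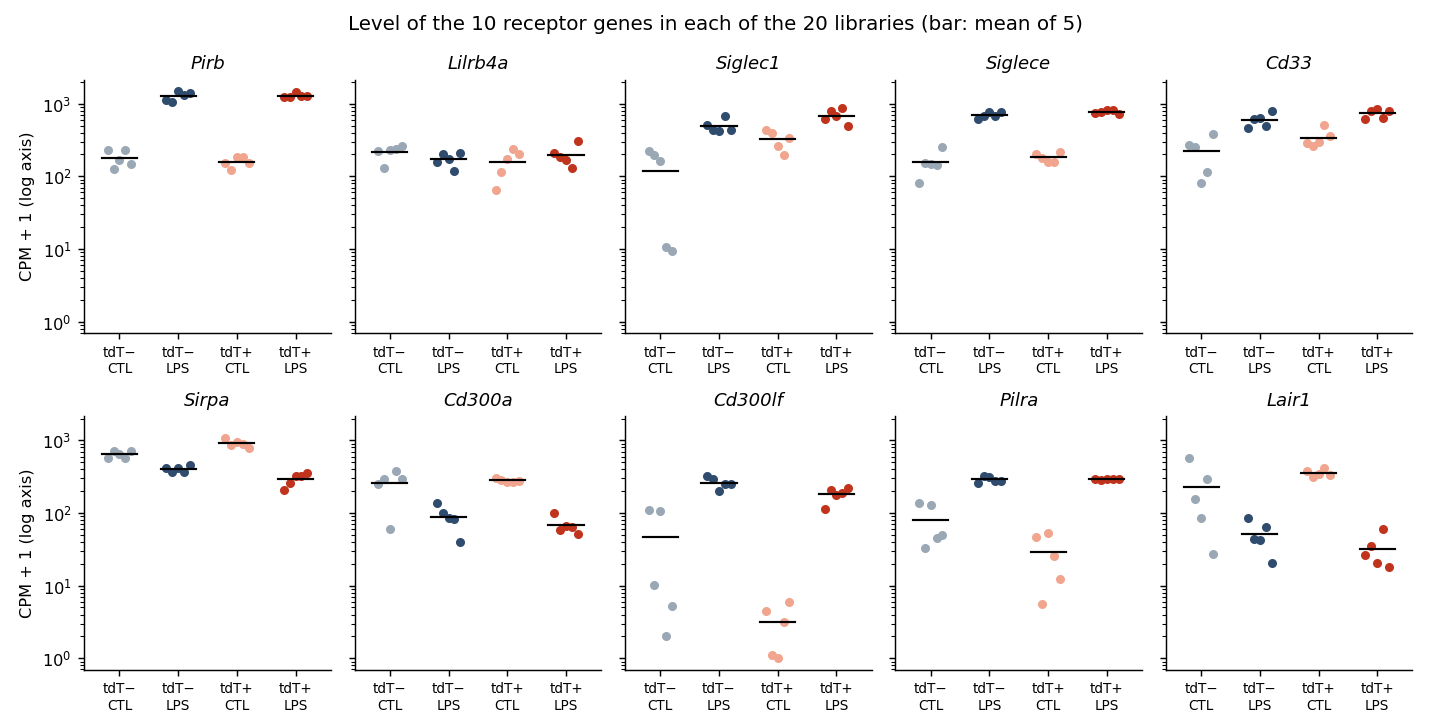
Level of each of the 10 receptor genes as CPM + 1 on a log axis, 1 point per library and a bar at the mean of 5, for tdT− and tdT+ dCAMs of CTL and LPS mice. Pirb lies between 121 and 232 CPM in CTL and between 1071 and 1483 CPM in LPS libraries, while Siglec1, Cd300lf and Lair1 are widely scattered in tdT− CTL libraries.

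The LPS comparison asks how this receptor set responds to endotoxin in each population. In tdT− dCAMs, Pirb, Siglec1, Siglece, Cd33 and Pilra rose and Cd300a and Lair1 fell, which is 7 of 10 genes past both thresholds (adjusted p below 0.05, change of more than 1 log2 unit either way). Of all 16632 genes tested, 11.5% passed the same test, 7.2% higher and 4.27% lower. In tdT+ dCAMs, Pirb, Siglece, Cd33, Cd300lf and Pilra rose and Sirpa, Cd300a and Lair1 fell, which is 8 of 10 against 5.89% of all genes, 3.37% higher and 2.52% lower. The median log2 fold change of the 10 genes was 1.67 in tdT− and 1.10 in tdT+ dCAMs, where the medians over all genes tested were 0.02 and 0.01. LPS and CTL libraries did not overlap for 7 of the 10 genes in tdT− dCAMs, where 12.6% of all genes showed no overlap, and for 9 of 10 in tdT+ dCAMs, where 17.8% did. Both populations came from the same mice and are not independent of each other. Without the tdT− libraries of CTL mice 178 and 179, a choice made after the data had been seen, the counts were 6 in tdT− and 9 in tdT+ dCAMs. Of 16547 genes, 2432 and 1377 were then called. In fits of the 10 libraries of each comparison alone the count in tdT− dCAMs was 3, where 882 of 16292 genes were called. With the mouse as a random block the counts were 7 and 9, where 4523 and 1571 of 16632 genes were called.

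**Figure D2:**
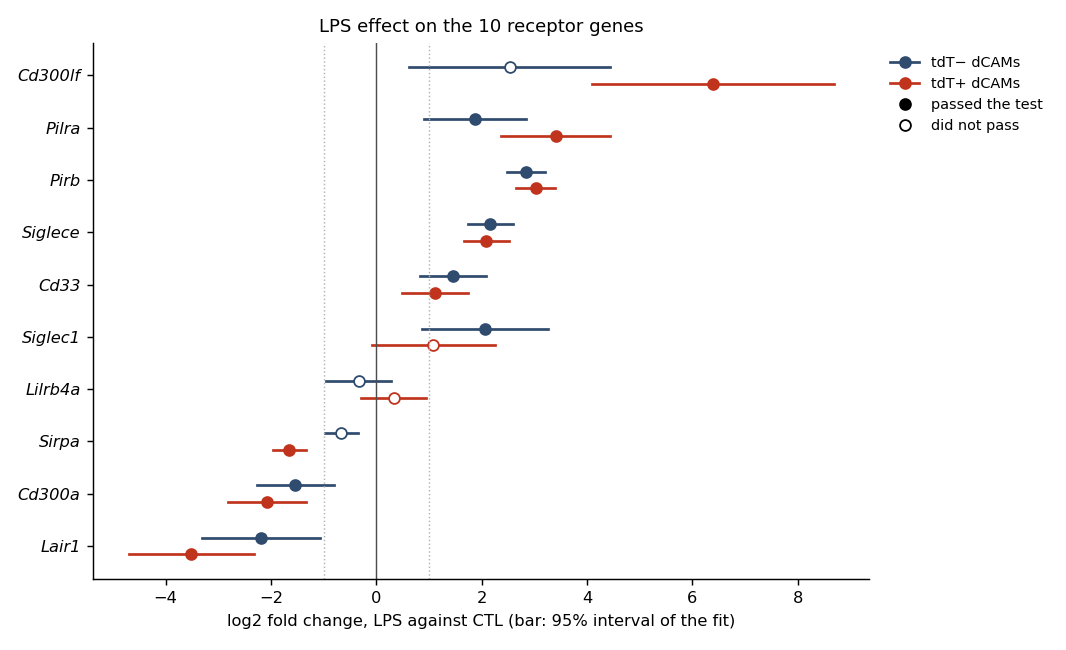
Log2 fold change of LPS against CTL for each receptor gene in tdT− (blue) and tdT+ (red) dCAMs, with the 95% interval of the edgeR fit, where filled points passed the test and dotted lines mark the fold threshold. Pirb and Siglece have narrow intervals at 2.84 and 3.03 and at 2.17 and 2.09, whereas the intervals of Cd300lf span 0.62 to 4.44 and 4.09 to 8.69.

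Pirb encodes the paired immunoglobulin-like receptor B, an ITIM receptor for MHC class I molecules. It was at 227, 124, 166, 232 and 146 CPM in the tdT− libraries of CTL mice 174, 175, 177, 178 and 179, and at 1127, 1071, 1483, 1316 and 1421 CPM in those of LPS mice 54, 56, 59, 60 and 61. In the tdT+ libraries it was at 152, 121, 182, 185 and 153 CPM in CTL mice and at 1240, 1226, 1442, 1281 and 1273 CPM in LPS mice. Every LPS library was thus far above every CTL library, and the populations lay side by side within each treatment. The rise was 7.17-fold in tdT− (log2 fold change 2.84 ± 0.19 SE, adjusted p = 1.96e-09) and 8.15-fold in tdT+ dCAMs (3.03 ± 0.19, adjusted p = 9.27e-10). Its log2 fold change stayed between 2.74 and 2.95 in tdT− and between 2.93 and 3.09 in tdT+ dCAMs over 20 alternative analyses each. The difference of both LPS effects was 0.18 on the log2 scale (95% interval −0.30 to 0.67, adjusted p = 0.962).

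The genes whose profile over the 20 libraries was nearest to that of Pirb were Fth1, Sdc4, Plin2, Itgam and Pkm. They were the nearest of 5822 genes that averaged 4 or more in log2 CPM, with root-mean-square differences of 0.32, 0.33, 0.39, 0.45 and 0.47 log2 units after centring. Fth1 encodes the ferritin heavy chain, Sdc4 the heparan sulfate proteoglycan syndecan 4, Plin2 a lipid droplet protein, Pkm a pyruvate kinase, and Itgam the CD11b chain that the sorting gate used. Fth1 averaged 5955 and 5303 CPM in tdT− and tdT+ CTL libraries and 33588 and 35850 CPM after LPS. Among the other receptors, Siglece was the nearest to Pirb, at rank 24.

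Of the 10 genes, 7 matched an entry of the RefSeq promoter table for GRCm38.p6 (Pirb, Siglece, Cd33, Cd300a, Cd300lf, Pilra and Lair1). The 250 bases before the start of Pirb and Pilra, which rose in both populations, and of Lair1, which fell in both, are given 5′ to 3′ on the strand of the gene, with matched motifs in capitals. Pirb lies on the minus strand, with this window at chr7:3720383-3720632, Pilra on the minus strand at chr5:137836279-137836528 and Lair1 on the minus strand at chr7:4063205-4063454.
Pirb: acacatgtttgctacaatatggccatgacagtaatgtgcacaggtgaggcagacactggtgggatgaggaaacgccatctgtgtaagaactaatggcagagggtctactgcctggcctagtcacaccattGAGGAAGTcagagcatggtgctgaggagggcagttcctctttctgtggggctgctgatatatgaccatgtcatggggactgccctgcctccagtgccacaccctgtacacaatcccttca
Pilra: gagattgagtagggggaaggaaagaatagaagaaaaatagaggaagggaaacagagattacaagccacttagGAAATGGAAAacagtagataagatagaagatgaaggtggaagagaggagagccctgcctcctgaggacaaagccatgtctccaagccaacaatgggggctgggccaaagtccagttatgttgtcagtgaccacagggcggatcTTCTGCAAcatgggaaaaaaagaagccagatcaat
Lair1: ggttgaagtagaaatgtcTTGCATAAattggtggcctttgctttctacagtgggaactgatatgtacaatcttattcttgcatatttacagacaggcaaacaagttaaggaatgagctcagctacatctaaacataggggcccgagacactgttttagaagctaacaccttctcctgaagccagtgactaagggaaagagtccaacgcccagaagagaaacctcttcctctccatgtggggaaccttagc
The capitals in Pirb are the PU.1 motif GAGGAAGT, which was found in 2.44% of 32851 promoter windows of the same length. In Pilra they are the interferon-stimulated response element motif, found in 2.98% of windows, and a C/EBP motif, TTGCNNAA, on the opposite strand. Lair1 holds the C/EBP motif as well, which was found in 3 of the 7 receptor windows and in 9.56% of all windows. The AP-1 motif TGANTCA and the STAT motif TTCNNNGAA were in 0 of the 7 windows and in 6.75% and 7.02% of all windows, and the NF-kB motif was in Cd300a and in 7.25% of all windows. Both strands were searched, and motifs with different names were allowed to overlap. These are matches of letters within 250 bases and do not locate a bound site.

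Pirb and its activating counterparts, the Pira genes, lie in 1 cluster on chromosome 7 and are nearly identical in sequence, which bears on how reads were assigned. Of the 50-base windows along the longest coding transcript of Pirb, 31.9% occur in other genes of the table. These were 179 genes, not the Pira genes alone, of which Pira2, Lilra6 and Gm15931 shared the most windows. Of the windows along Lilrb4a, 27.8% occur in Lilrb4b. The opening 90 coding bases of both pairs (GENCODE M21, GRCm38) are shown because they make the problem visible. Their start codons lie at chr7:3720324-3720326 (minus strand) for Pirb, chr7:3845021-3845023 (minus strand) for Pira2, chr10:51491018-51491020 (plus strand) for Lilrb4a and chr10:51480720-51480722 (plus strand) for Lilrb4b, and capitals mark the bases that differ within a pair.
Pirb: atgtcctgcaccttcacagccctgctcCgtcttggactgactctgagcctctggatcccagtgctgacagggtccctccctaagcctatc
Pira2: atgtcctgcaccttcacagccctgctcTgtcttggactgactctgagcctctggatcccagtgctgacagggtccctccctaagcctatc
Lilrb4a: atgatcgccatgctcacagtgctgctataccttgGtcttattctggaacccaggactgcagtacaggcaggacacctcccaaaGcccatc
Lilrb4b: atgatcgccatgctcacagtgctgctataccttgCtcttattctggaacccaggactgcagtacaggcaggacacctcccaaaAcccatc
Pirb and Pira2 share 89 of these 90 bases, and Lilrb4a and Lilrb4b share 88. How reads that matched several genes were treated is not given in the sources used here, so that levels within these families are uncertain.

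Almost all counts of Pirb and the Pira genes of the table were nevertheless assigned to Pirb, which cannot show whether the reads were assigned correctly. The 4 Pira genes of the table (Pira1, Pira2, Pira6 and Pira11) were at 25.8 CPM or less in every library. Lilra6 and Gm15931, which also share windows with Pirb, were not counted in this family. The share of Pirb was 94.4 ± 3.78% in tdT− CTL and 98.7 ± 1.15% in tdT− LPS libraries (SD, n = 5), which did not pass a two-sided exact permutation test (8 share tests, p = 0.0556, adjusted p = 0.089). In tdT+ dCAMs it was 98.8 ± 1.19% and 99.8 ± 0.0484% (exact permutation p = 0.0476, adjusted p = 0.089). With the counts of Pira genes added to Pirb, its LPS effect was 2.77 and 3.01 on the log2 scale.

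Lilrb4a (gp49B) encodes an ITIM receptor, and its neighbour Lilrb4b (gp49A) a near-identical protein without ITIMs. Lilrb4a was at 222, 128, 232, 234 and 261 CPM in tdT− CTL and at 156, 202, 170, 116 and 210 CPM in tdT− LPS libraries. In tdT+ dCAMs it was at 63.8, 112, 174, 238 and 201 CPM in CTL and at 210, 183, 167, 128 and 303 CPM in LPS libraries. The groups overlapped in both populations, and Lilrb4a did not pass the test, with log2 fold changes of −0.33 ± 0.32 (adjusted p = 0.51) and 0.33 ± 0.32 (adjusted p = 0.681). Lilrb4b averaged 212 ± 184 and 445 ± 143 CPM in tdT− CTL and LPS libraries (1.07 ± 0.51, adjusted p = 0.164) and rose from 147 ± 91.1 to 513 ± 167 CPM in tdT+ dCAMs (1.80 ± 0.52, adjusted p = 0.0407). The share of Lilrb4a within the pair dropped from 56.1 ± 18.3% to 28.2 ± 3.31% in tdT− and from 54.6 ± 7.04% to 27.8 ± 2.63% in tdT+ dCAMs. In both populations all 5 LPS libraries lay below all 5 CTL libraries (exact permutation p = 0.00794 in each, the smallest that 5 against 5 libraries can give, adjusted p = 0.0212). Summed over the pair, the LPS effect was 0.53 (adjusted p = 0.354) and 1.22 (adjusted p = 0.0559) on the log2 scale. In tdT− dCAMs the sum thus had the opposite sign to Lilrb4a, and whether reads were assigned wrongly within the pair was not tested. A read-through gene of GENCODE M21, Gm49339, spans both and adds to this uncertainty.

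**Figure D3:**
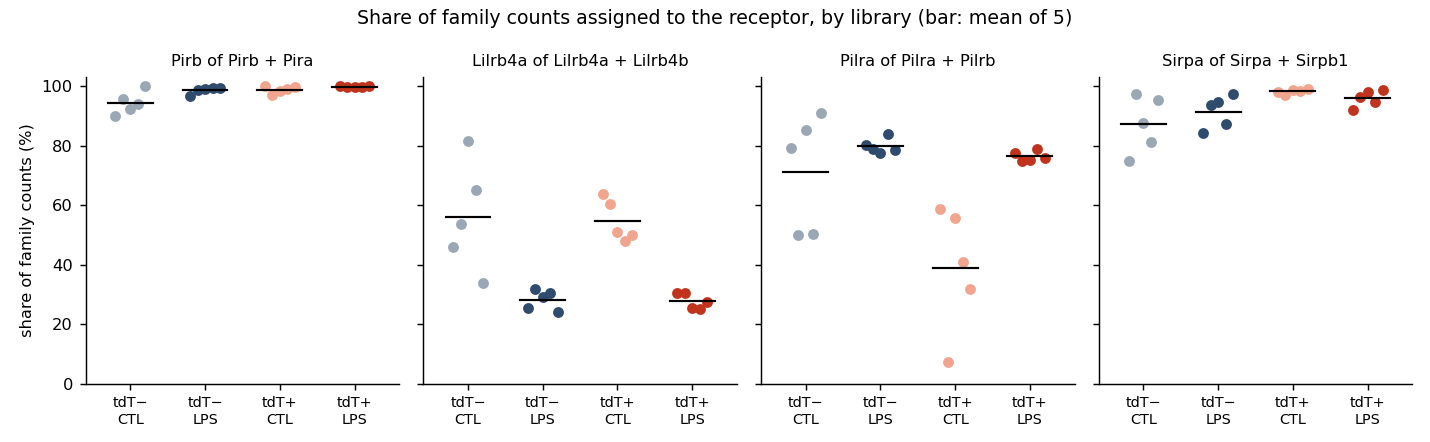
Percent of the counts of a receptor and its near-identical relatives that were assigned to the receptor, 1 point per library and a bar at the mean of 5, for tdT− and tdT+ dCAMs of CTL and LPS mice. The share of Lilrb4a lies between 33.8% and 81.7% in CTL and between 24.1% and 31.9% in LPS libraries, and that of Pilra reaches as low as 7.40% in tdT+ CTL libraries.

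Pilra encodes an ITIM receptor for O-glycosylated ligands, and its partners Pilrb1 and Pilrb2 are activating. Pilra was at 139, 32.4, 129, 44.4 and 48.2 CPM in tdT− CTL and at 260, 323, 315, 275 and 272 CPM in tdT− LPS libraries. The tdT+ libraries had it at 45.6, 4.67, 51.9, 24.7 and 11.2 CPM in CTL and at 297, 281, 298, 292 and 293 CPM in LPS libraries. The CTL libraries were spread widely, whereas the LPS libraries were close together at a level common to both populations, with an SD of 6.34 CPM in tdT+ dCAMs. Pilra rose 3.68-fold in tdT− (1.88 ± 0.49, adjusted p = 0.0144) and 10.6-fold in tdT+ dCAMs (3.404 ± 0.53, adjusted p = 0.000148). The call in tdT− dCAMs was lost without the tdT− libraries of CTL mice 178 and 179 (1.53, adjusted p = 0.074). Pilrb1 averaged 9.42 and 34.8 CPM in tdT− CTL and LPS libraries and 19.96 and 42.2 CPM in tdT+ ones, and Pilrb2 18.6 and 38.8 and 18.4 and 48.0 CPM, none of which passed the test. The share of Pilra in the family rose from 38.9 ± 20.7% to 76.4 ± 1.77% in tdT+ dCAMs (exact permutation p = 0.00794, adjusted p = 0.0212) and was 71.1 ± 19.6% and 79.9 ± 2.49% in tdT− dCAMs (exact permutation p = 0.429, adjusted p = 0.437). Pilra overlaps Zcwpw1 on the opposite strand in GENCODE M21, and no strand setting of the counting is stated.

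Siglece, Cd33 and Siglec1 encode sialic acid-binding lectins, of which Siglec-E is the ITIM receptor that mouse macrophages and neutrophils use to sense sialylated self surfaces. Siglece was at 80.6, 152, 147, 143 and 256 CPM in tdT− CTL and at 611, 686, 756, 670 and 772 CPM in tdT− LPS libraries. Among tdT+ libraries the values were 201, 176, 157, 157 and 215 CPM in CTL and at 733, 757, 821, 823 and 725 CPM in LPS libraries. The groups were well apart, with a rise of 4.49-fold in tdT− (2.17 ± 0.22, adjusted p = 9.01e-07) and 4.26-fold in tdT+ dCAMs (2.09 ± 0.22, adjusted p = 1.18e-06). Both calls held under all 20 alternatives.

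Cd33 was at 265, 255, 79.2, 113 and 382 CPM in tdT− CTL and at 465, 615, 640, 491 and 790 CPM in tdT− LPS libraries. The corresponding tdT+ values were 285, 260, 300, 503 and 356 CPM in CTL and at 623, 791, 838, 638 and 798 CPM in LPS libraries. No libraries of the groups overlapped, and Cd33 rose 2.74-fold in tdT− (1.46 ± 0.32, adjusted p = 0.00373) and 2.16-fold in tdT+ dCAMs (1.11 ± 0.32, adjusted p = 0.0356). The call in tdT+ dCAMs was lost in 8 of 20 alternatives, among them the omission of any LPS mouse or of CTL mouse 174 or 175, with a log2 fold change that stayed between 1.02 and 1.30. In tdT− dCAMs it was lost in 1, the fit of the 10 tdT− libraries alone (adjusted p = 0.0555).

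Siglec1 was at 221, 196, 160, 9.48 and 8.50 CPM in tdT− CTL and at 506, 429, 425, 683 and 433 CPM in tdT− LPS libraries. The low pair came from CTL mice 178 and 179, whose tdT− libraries were also those with haemoglobin. In tdT+ dCAMs Siglec1 was at 432, 391, 263, 195 and 334 CPM in CTL and at 619, 781, 670, 859 and 497 CPM in LPS libraries. It rose 4.16-fold in tdT− dCAMs (2.06 ± 0.61, adjusted p = 0.0299). In tdT+ dCAMs the groups did not overlap either, yet the gene did not pass the test (1.08 ± 0.59, adjusted p = 0.337). That test estimates 1 spread from all 20 libraries, and in a fit of the 10 tdT+ libraries alone Siglec1 passed (1.08, adjusted p = 0.00355). Without those of mice 178 and 179, Siglec1 passed in both, at 1.36 (adjusted p = 0.00133) and 1.08 (adjusted p = 0.00224). It also passed in tdT+ dCAMs with the mouse as a block (1.06, adjusted p = 0.0259). The call in tdT− dCAMs was lost on omission of any single LPS mouse (1.91 to 2.11, adjusted p = 0.0553 to 0.0777), in the fit of the 10 tdT− libraries alone (2.09, adjusted p = 0.158) and with weighted voom (2.85, adjusted p = 0.0626).

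Cd300a and Cd300lf are ITIM receptors of the CD300 family, which recognises phosphatidylserine and other lipids exposed on dying cells, and they went in opposite directions. Cd300a was at 248, 297, 58.8, 380 and 297 CPM in tdT− CTL and at 137, 99.1, 83.4, 81.5 and 39.0 CPM in tdT− LPS libraries. In tdT+ dCAMs it was at 306, 284, 267, 270 and 275 CPM in CTL and at 97.7, 57.8, 65.4, 62.5 and 49.9 CPM in LPS libraries. In the tdT− population only the library of CTL mouse 177 lay within the LPS range, and in tdT+ dCAMs none did. Cd300a fell 2.91-fold in tdT− (−1.54 ± 0.37, adjusted p = 0.00803) and 4.21-fold in tdT+ dCAMs (−2.07 ± 0.38, adjusted p = 0.000933). The call in tdT− dCAMs was lost with weighted voom and in a fit of the 10 tdT− libraries alone.

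Cd300lf was close to absent in tdT+ CTL libraries, at 3.41, 0.106, 0, 2.2 and 4.91 CPM, with 2 of the 5 at or under 3 counts. In tdT+ LPS libraries it was at 111, 206, 177, 185 and 219 CPM, a rise with a fitted log2 fold change of 6.39 ± 1.17 (adjusted p = 0.000995). Because the CTL libraries held 0 to 64 counts, its size is uncertain, and with the mouse as a block it was 7.77. In tdT− dCAMs it was at 108, 9.22, 105, 1.02 and 4.32 CPM in CTL and at 320, 293, 199, 250 and 247 CPM in LPS libraries. The libraries of CTL mice 174 and 177 were far above the other 3, and the gene did not pass the test in tdT− dCAMs although no libraries overlapped (2.53 ± 0.97, adjusted p = 0.0909). It passed there with the mouse as a block (4.28, adjusted p = 0.00281), with DESeq2 (adjusted p = 0.0401), with weighted voom (adjusted p = 0.0311) and without CTL mouse 177 (3.06, adjusted p = 0.0436). The difference between the LPS effects was 3.86 on the log2 scale (95% interval 1.19 to 6.53, adjusted p = 0.202). It passed the test without the tdT− libraries of CTL mice 178 and 179 (4.56, adjusted p = 0.0203). Cd300lf overlaps Rab37 on the opposite strand, and 6.32% of its 50-base windows occur in other genes, chiefly Cd300ld.

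Sirpa encodes SIRPα, the ITIM receptor through which CD47 on other cells restrains phagocytosis. It was at 562, 709, 649, 574 and 713 CPM in tdT− CTL and at 422, 361, 413, 370 and 459 CPM in tdT− LPS libraries. The tdT+ libraries had it at 1087, 876, 949, 901 and 776 CPM in CTL and at 205, 257, 326, 319 and 354 CPM in LPS libraries. The 4 groups were all apart from each other, in the order tdT+ CTL, tdT− CTL, tdT− LPS and tdT+ LPS. Sirpa fell 3.14-fold in tdT+ dCAMs (−1.65 ± 0.16, adjusted p = 4.80e-07). In tdT− dCAMs the change was −0.66 ± 0.16 with an adjusted p of 0.00737, short of the fold threshold. The difference between the LPS effects was −0.99 ± 0.22 (95% interval −1.43 to −0.55, adjusted p = 0.0284), also just short of that threshold, while 1.26% of all genes passed this test, 0.0902% higher and 1.17% lower, and 0 of the 10 receptors did by edgeR (3 at an unadjusted p under 0.05, 1 by DESeq2). With the mouse as a fixed block it was −1.01 with an adjusted p of 0.0948, and with the mouse as a random block −0.90 with an adjusted p of 0.00867. The activating relatives Sirpb1a, Sirpb1b and Sirpb1c were lower in level, at 62.4, 15.1 and 16.1 CPM on average in tdT− CTL libraries and 19.1 CPM or less in every LPS group. Sirpb1a fell in tdT− dCAMs (−2.36 ± 0.75, adjusted p = 0.0421). The share of Sirpa in the family was 87.3% and 91.4% in tdT− and 98.2% and 95.9% in tdT+ CTL and LPS libraries (exact permutation p = 0.437 and 0.0952, adjusted p = 0.437 and 0.127).

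Lair1 encodes an ITIM receptor for collagens and the complement component C1q. It was at 576, 157, 84.3, 296 and 26.6 CPM in tdT− CTL and at 83.4, 43.3, 41.0, 63.5 and 19.2 CPM in tdT− LPS libraries. Among tdT+ libraries the values were 383, 314, 344, 410 and 330 CPM in CTL and at 25.7, 33.7, 19.3, 59.9 and 17.3 CPM in LPS libraries. The tdT+ groups were far apart, with a decline of 11.4-fold (−3.51 ± 0.61, adjusted p = 0.000524). The tdT− groups overlapped, and the highest CTL value came from mouse 174, whose tdT− library also had the highest Cd209a and Flt3 values. Their part in the value was not tested. Lair1 passed the test in tdT− dCAMs (−2.19 ± 0.57, adjusted p = 0.0145), but not without CTL mouse 174 (−1.49, adjusted p = 0.0646) and not with the mouse as a block (−1.63, adjusted p = 0.0646).

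The comparison of tdT+ with tdT− dCAMs of the same mice asks whether the receptors depend on the Ccr2 label. In CTL mice 1 of 10 genes passed the test, and it was lower in tdT+ dCAMs. Of all genes 4.28% passed, 1.27% lower. Cd300lf was 21.1-fold lower in tdT+ dCAMs (−4.40 ± 1.07, adjusted p = 0.02). This call rested on CTL mice 174 and 177, since within mice the tdT+ library was lower in 3 of 5, and it was lost without either mouse (−4.00 and −3.53, adjusted p = 0.0539 and 0.0585) and with the mouse as a block (−4.01 and −3.78, adjusted p = 0.0633 and 0.244 for a random and a fixed block). In LPS mice 0 of 10 passed in edgeR (lowest adjusted p 0.913), where 0.0301% of all genes did. The sign was nevertheless the same in all 5 LPS mice for 5 of the 10 genes, with Siglec1 and Cd33 higher and Sirpa, Cd300lf and Lair1 lower in the tdT+ library, against 9.9% of all genes. At an unadjusted p under 0.05 there was 1 gene, Sirpa, and DESeq2 and voom also called 0.

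Sirpa differed in opposite senses between the populations of CTL and of LPS mice. The tdT+ library exceeded the tdT− library of the same mouse in all 5 CTL mice, by 0.12 to 0.95 log2 units, and lay below it in all 5 LPS mice, by −0.21 to −1.04. Of all genes, 9.46% had the same sign in all 5 CTL mice and 9.9% in all 5 LPS mice, while 3.78% and 1.79% had groups that did not overlap, as Sirpa did in both. Neither contrast passed the test on its own, at 0.52 ± 0.16 (adjusted p = 0.0665) and −0.47 ± 0.16 (adjusted p = 0.913). Pilra was lower in the tdT+ library of all 5 CTL mice (−1.51 ± 0.49, adjusted p = 0.0822). It passed with the mouse as a fixed block (−1.72, adjusted p = 0.0102), but not with a random block (−1.76, adjusted p = 0.0506), with a fixed block on the 10 CTL libraries (adjusted p = 0.697) or with relatives summed (−0.69, adjusted p = 0.167). In LPS mice the difference was 0.01 (95% interval −0.92 to 0.95). Siglec1 was higher in the tdT+ library of all 5 CTL and all 5 LPS mice, at 1.44 ± 0.60 (adjusted p = 0.161) and 0.47 ± 0.59 (adjusted p = 1). Lair1 passed in CTL mice with a random block for the mouse alone (1.32, adjusted p = 0.0392). For Pirb the difference was −0.17 (95% interval −0.52 to 0.17) in CTL and 0.01 (−0.33 to 0.35) in LPS mice, and for Siglece 0.22 (−0.20 to 0.64) and 0.14 (−0.27 to 0.56).

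**Figure D4:**
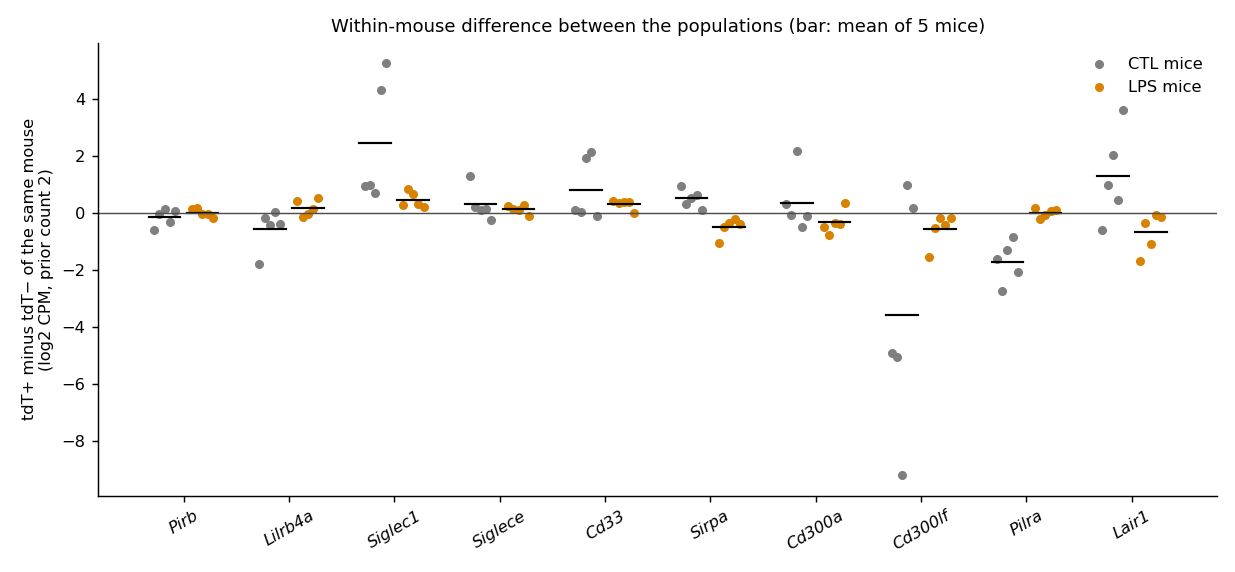
Difference in log2 CPM between the tdT+ and the tdT− library of each mouse, 1 point per mouse and a bar at the mean of 5, for CTL (grey) and LPS mice (orange). Sirpa lies above 0 in all CTL mice and below 0 in all LPS mice, and the CTL differences of Siglec1 and Cd300lf span from 0.71 to 5.27 and from −9.21 to 0.99.

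Among 24 tested relatives of the 10 receptors, which include the families given above, 1 rose and 7 fell in tdT− dCAMs (all genes 7.2% and 4.27%), and 1 rose and 6 fell in tdT+ dCAMs (all genes 3.37% and 2.52%). With weighted voom, 1 passed upwards and 3 downwards in the tdT− population, and 4 and 7 in the tdT+ one. Of all 16632 genes, weighted voom called 1459 higher and 447 lower in tdT−, and 1819 and 1336 in tdT+ dCAMs. For the 7 relatives that averaged 4 or more in log2 CPM, the median log2 fold change was −1.77 and −2.45, against −0.01 and 0.12 for all genes of that level. Cd300ld, an activating CD300 receptor, fell from 305 ± 156 to 89.4 ± 36.4 CPM in tdT− (−1.77 ± 0.36, adjusted p = 0.0023) and from 571 ± 83.1 to 105 ± 46.1 CPM in tdT+ dCAMs (−2.45 ± 0.37, adjusted p = 0.0001). Cd300c2 fell in both as well (−2.34 ± 0.39 and −2.46 ± 0.39), as did Lilra5 (−2.81 ± 0.53 and −3.83 ± 0.55) and Siglech (−2.70 ± 0.74 and −4.01 ± 0.78). These receptors signal through FcRγ or DAP12 rather than through an ITIM. The gene that rose was Pira6 in tdT− dCAMs, from 0.0507 to 3.45 CPM, and Lilrb4b in tdT+ dCAMs.

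Of 15 other inhibitory receptors tested, 3 rose and 3 fell in tdT− (all genes 7.2% and 4.27%) and 3 rose and 1 fell in tdT+ dCAMs (all genes 3.37% and 2.52%). With weighted voom, 1 went up and 2 went down in the tdT− population (1459 and 447 of all genes). In the tdT+ one these were 6 and 2 (1819 and 1336 of all genes). Fcgr2b, the inhibitory Fc receptor for IgG, rose from 745 ± 139 to 1962 ± 570 CPM in tdT− (1.40 ± 0.20) and from 818 ± 62.8 to 2242 ± 608 CPM in tdT+ dCAMs (1.45 ± 0.20). Clec12a, an ITIM lectin that senses uric acid crystals, fell from 708 ± 255 to 123 ± 40.1 CPM (−2.53 ± 0.29) and from 456 ± 55.8 to 77.7 ± 21.7 CPM (−2.55 ± 0.29). The others that rose were scarce transcripts, namely Ceacam1 and Pdcd1 in tdT− and Cd244a and Pecam1 in tdT+ dCAMs. Clec4a2 and Cd72 fell in tdT− dCAMs (−1.04 ± 0.29, adjusted p = 0.0189, and −1.41 ± 0.41, adjusted p = 0.028).

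Adaptors and kinases that serve the activating partners were also examined. Fcer1g, the FcRγ chain, and the kinase Lyn rose in tdT+ dCAMs (1.24 ± 0.12 and 1.18 ± 0.18), where in tdT− dCAMs their adjusted p passed but not their fold (0.89 ± 0.12 and 0.77 ± 0.18). Fgr rose in tdT+ dCAMs from 2.66 ± 4.82 to 241 ± 47.9 CPM (6.49 ± 1.29, adjusted p = 0.0022) and, as with Cd300lf, was lower in the tdT+ than in the tdT− CTL group (−4.44 ± 1.18, adjusted p = 0.0331). Tyrobp, which encodes DAP12, had log2 fold changes of −0.71 and −0.67. Of 10 phosphatases and negative regulators that act downstream of ITIMs, 0 passed in either population by edgeR (all genes 11.5% and 5.89%). The log2 fold changes of Ptpn6 (SHP-1) were −0.33 (95% interval −0.68 to 0.02) and −0.27 (−0.62 to 0.09), and those of Inpp5d (SHIP-1) 0.17 (−0.40 to 0.74) and −0.09 (−0.66 to 0.48). For Ptpn11 (SHP-2) the intervals reached from −2.38 to 1.77 and from −2.08 to 2.06. At an unadjusted p under 0.05, 1 and 4 of the 10 were called, and DESeq2 called 0 and 3, the 3 lower. Of all 16632 genes, DESeq2 called 2843 and 1533. Weighted voom called 0 of the 10 in tdT− dCAMs (1906 of all genes). In tdT+ dCAMs it called 1 higher and 3 lower (1819 and 1336 of all genes).

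Of 20 ligand genes tested, 2 rose and 3 fell in tdT− (all genes 7.2% and 4.27%) and 3 rose and 2 fell in tdT+ dCAMs (all genes 3.37% and 2.52%). With weighted voom, 1 and 2 passed in these directions in the tdT− population (1459 and 447 of all genes). In the tdT+ population 7 and 2 passed (1819 and 1336 of all genes). Cd47, the ligand of SIRPα, rose from 385 ± 94.5 to 1461 ± 167 CPM in tdT− (1.92 ± 0.17) and from 360 ± 47.9 to 1600 ± 170 CPM in tdT+ dCAMs (2.15 ± 0.17), in the same libraries in which Sirpa was lower. Of the C1q genes, whose product binds LAIR-1, C1qa (−1.32 ± 0.22 and −1.29 ± 0.22) and C1qc (−1.55 ± 0.19 and −1.52 ± 0.19) fell in both populations. H2-Q7, a class Ib MHC gene, rose in both (2.05 ± 0.51 and 2.61 ± 0.53) and its paralog H2-Q6 in tdT+ dCAMs (3.36 ± 0.91, adjusted p = 0.0274), and reads of such paralogs may be split between them. The classical ligands of PIR-B, H2-K1 and H2-D1, together with B2m, had log2 fold changes between 0.49 and 0.83, with adjusted p values that passed and folds that did not. Col1a1 fell in tdT− dCAMs (−3.78 ± 1.13, adjusted p = 0.0305), where the groups overlapped and the CTL mean of 269.6 CPM included the library from mouse 179 with 920.2 CPM. It was at −0.88 in tdT+ dCAMs, and the difference of the LPS effects did not pass the test (adjusted p = 0.407). Of 18 genes for the synthesis, transfer and removal of sialic acid, 3 fell in each population (all genes 4.27% and 2.52%), which were St3gal6, St6galnac6 and the scarcer Cmah. DESeq2 also called 2 higher in each (1679 and 803 of all genes). Weighted voom had 1 up and 2 down in the tdT− population, where it called 1459 and 447 of all genes. In the tdT+ population it had 4 and 7, where it called 1819 and 1336. St3gal6, a sialyltransferase, fell from 138 ± 37.0 to 23.9 ± 7.69 CPM in tdT− (−2.53 ± 0.32) and from 251 ± 56.4 to 29.1 ± 8.08 CPM in tdT+ dCAMs (−3.10 ± 0.33), and St6galnac6 fell as well (−1.97 ± 0.44 and −1.74 ± 0.43). In CTL mice Cmas and St3gal4 were lower in tdT+ than in tdT− dCAMs (−1.84 ± 0.38, adjusted p = 0.0054, and −1.52 ± 0.32, adjusted p = 0.006), where weighted voom called 0 genes of this list (4 at an unadjusted p under 0.05 in edgeR). Tyrobp, the phosphatase genes, H2-K1, H2-D1 and B2m were named for their role after their values had been seen.

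**Figure D5:**
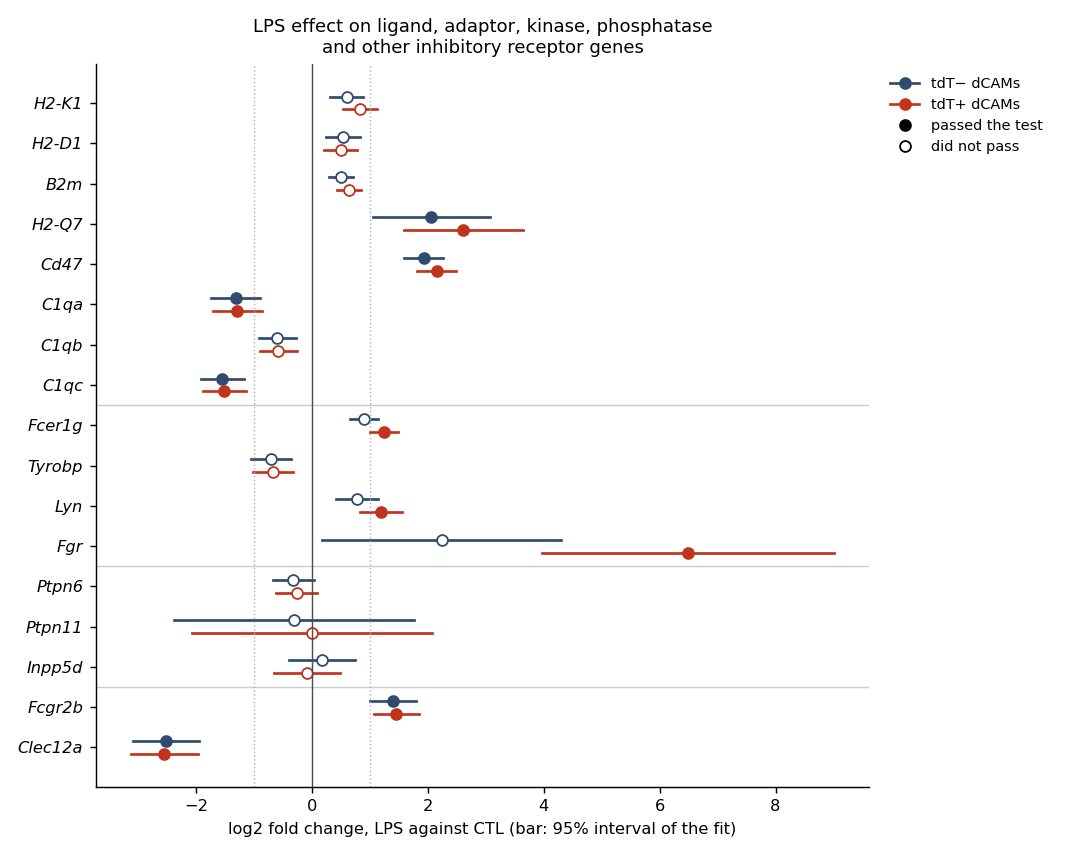
Log2 fold change of LPS against CTL with the 95% interval of the edgeR fit in tdT− (blue) and tdT+ (red) dCAMs, for ligand genes (top), adaptors and kinases, phosphatases, and 2 further inhibitory receptors (bottom), where filled points passed the test. Cd47 lies at 1.92 and 2.15, C1qc at −1.55 and −1.52, and Ptpn6 at −0.33 and −0.27.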

How the data were processed

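Full-length cDNA libraries were made by template switching (SMART-Seq mRNA LP) from about 500 pg of RNA, amplified by PCR without molecular identifiers and sequenced on an Illumina NextSeq. The authors aligned reads with STAR 2.7.11a and deposited raw read counts per gene symbol from featureCounts 2.0.6 (versions per the labels). The study's methods name several mouse references without saying which served these libraries, and the strand setting and treatment of multiply mapped reads are not given in the sources used here. The deposited counts were tested with edgeR 4.0.16 in R 4.3.3 (TMM scaling, quasi-likelihood fit of all 20 libraries, 5 contrasts) over the 16632 genes with a total of at least 10 counts, with Benjamini-Hochberg adjustment over all genes of a contrast. Calls required an adjusted p below 0.05 and a change of more than 1 log2 unit either way. In the text, ± after a fold change is the SE, after a level or share the SD over 5 libraries. The floor was 3 counts, and the common biological coefficient of variation was 1.13. P-values cover the spread between mice and libraries, and counting error excludes PCR duplication.

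Named genes were the 10 receptors, up to 4 called genes per list and direction that averaged 4 or more in log2 CPM and had the smallest p, all Pira, Lilrb4b, Pilrb and Sirpb1 relatives, and the 5 genes nearest to Pirb. Members and lists were chosen with earlier results of these data known. The tdT+ and tdT− libraries of a mouse are paired by animal. The correlation of their deviations from the group means was −0.0046 to 0.0461 in CTL and 0.228 to 0.449 in LPS mice, with a consensus of 0.0413, and the fit without a block was kept as the main one. The random block used limma 3.58.1 (voom) with an estimated correlation and the fixed block edgeR with a term per mouse. Further alternatives were DESeq2 1.42.0, its size factors, weighted voom, other filters, 10 libraries alone, the letter F or M of the titles, each mouse left out, and relatives summed. Shared sequence was searched in windows of 50 bases along the longest coding transcript of GENCODE M21 (GRCm38). The fit was tested on simulated data. A gene of the adaptor and kinase list, and the counts of that list, are not reported here.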

Additional observations from a re-analysis of the deposited data

Results flagged for a closer look

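Pirb in the tdT+ library of LPS mouse 59 was at 1442 CPM, apart from the other 4 libraries of its group at 1226 to 1281 CPM, a gap of 0.745 of the group's range where 0.71 is the limit for 5 samples. The share of Pirb among Pirb and Pira counts was 96.65% in the tdT− library of LPS mouse 54, against 98.81% to 99.4% in the other 4, a gap of 0.784 of the range. Of 56 groups of 5 examined in this way 2 stood out, and chance alone gives about 1 in 20. Without mouse 54 or 59 the LPS effect on Pirb stayed called in both populations. The LPS effect on Sirpa differed between tdT+ and tdT− dCAMs by −0.99 on the log2 scale in edgeR's test of the difference (adjusted p = 0.0284).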

How the results depend on the processing

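Pirb and Siglece kept their LPS calls in both populations under all 20 alternatives. Among counts and shares set against an alternative, 109 values stayed close to or on the same side as the main one, 14 moved and 3 gained a call. Among single genes 1048 stayed on the same side, while 30 lost a call, 18 gained one and 10 changed sign. The LPS count of receptors in tdT− dCAMs was 3 with the 10 libraries of the comparison alone and 6 to 8 with 1 mouse left out, and that in tdT+ dCAMs was 7 to 9 with 1 mouse left out. With 1 mouse left out, 1318 to 2605 of all genes were called in tdT− and 685 to 1080 in tdT+ dCAMs. The count for tdT+ against tdT− dCAMs in CTL mice was 2 with DESeq2, 0 with weighted voom, 0 with 10 libraries alone, 0 with these and a replicate block, 2 without the tdT− libraries of CTL mice 178 and 179, and 0 to 2 with 1 mouse left out. Of all genes, 1640, 369, 6, 5 and 1234 were called in these settings, and 470 to 1356 with 1 mouse left out. In LPS mice the receptor count was 0 to 0 with 1 mouse left out, where 1 to 6 of all genes were called. The count for the difference of the LPS effects was 1 with DESeq2 size factors, 1 with DESeq2 and 0 to 1 with 1 mouse left out, where the gene called was Sirpa, lower. It was also 1 without those libraries of mice 178 and 179, where the gene called was Cd300lf, higher. Of all genes, 215 were called for this difference with DESeq2 size factors and 744 with DESeq2. With 1 mouse left out 63 to 622 were called, and 553 without those libraries. The difference in the share of Pirb gained its call in tdT+ dCAMs as a log2 ratio (2.26, adjusted p = 0.0476 by exact permutation) and without CTL mouse 174 (1.33 percentage points), and in tdT− dCAMs without CTL mouse 179 (5.68), within ranges of 3.15 to 5.68 in tdT− and 0.59 to 1.33 in tdT+ dCAMs.

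None of the values that changed sign was called. With relatives summed these were Lilrb4a under LPS in tdT− dCAMs (0.53, from −0.33) and Pirb between the populations of LPS mice (−0.00654). With 1 mouse left out, the latter ranged from −0.031 (LPS mouse 56) to 0.050 and was −0.02 without LPS mouse 54, and Pilra in the same contrast ranged from −0.031 (LPS mouse 54) to 0.070 and was −0.00269 and −0.010 without LPS mouse 60 and 61. Cd300a between the populations of CTL mice ranged from −0.11 (without CTL mouse 177) to 0.33. The difference of the LPS effects ranged from −0.27 to 0.13 for Siglece (without CTL mouse 174) and from −0.62 to 0.00508 for Cd33 (without CTL mouse 178, from −0.34). Under the random replicate block the receptors called numbered 7 and 9 for LPS in tdT− and tdT+ dCAMs, 1 for CTL mice and 0 for LPS mice and the difference. The gene called in CTL mice was then Lair1, higher, while the main call of Cd300lf was lost. The single calls that the block changed stand beside their genes. Counts over all genes depended more on the tool: LPS in tdT− dCAMs gave 1907 calls, 882 with 10 libraries alone, 2843 with DESeq2 and 4523 with the random block, and CTL mice gave 712, 6, 1640 and 2245. The random block shifted the median of all genes to 0.76 for LPS in tdT− dCAMs. The causes were not tested. Depth in CTL libraries, from 6017650 counts, limits the scarce transcripts, such as Cd300lf with 0 to 64 counts in tdT+ dCAMs.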
